A study of Marchantia polymorpha and Arabidopsis thaliana with 54 samples.

Results

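Transcripts of 10 Arabidopsis thaliana genes of the salicylate and pattern-triggered defence pathways were followed in 18 seedling libraries: PR1, PR2, PR5, FRK1, ICS1, NHL10, PAD4, EDS1, SAG101 and NPR1. They were chosen by gene identifier from a table of RNA-seq read counts for 27655 genes. The study measured transcripts in 7-day-old whole seedlings that grew on agar medium with sucrose in continuous light at 22 °C, and exposed a share of them to 37 °C for 1 h. The groups were heat libraries labelled eTK (n = 3), control libraries labelled eTK (n = 6), Col-0 heat libraries (n = 3) and Col-0 control libraries (n = 6). Col-0 is the wild type, and the genotype of eTK is given as a knockout of HSFA1A, HSFA1B and HSFA1D, which encode transcription factors that start the heat shock response. Replicates 1 to 3 of every group are labelled batch 1 and replicates 4 to 6 of both control groups batch 2, so heat was measured in batch 1 only. The labels do not say what a batch shares, nor whether replicates were separate cultures, so the p-values measure only how far these samples vary, which may be technical variation.

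Salicylate is a plant hormone made in response to infection, mostly through isochorismate in the plastid, and it drives the pathogenesis-related (PR) genes through the coactivator NPR1. The lipase-like proteins EDS1, PAD4 and SAG101 act upstream of it and in cell death triggered by intracellular immune receptors. Pattern-triggered immunity starts at the cell surface, where receptor kinases bind molecules such as bacterial flagellin, and switches on early genes such as FRK1 and NHL10 within a short time. FRK1 encodes a flagellin-induced receptor-like kinase, NHL10 a membrane protein related to NDR1, ICS1 the isochorismate synthase that supplies most salicylate in infected leaves, PR2 a beta-1,3-glucanase and PR5 a thaumatin-like protein.

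The genes lie on 4 chromosomes of TAIR10.1. PR1 (AT2G14610) spans 6241640 to 6242541 on chromosome 2, and FRK1 (AT2G19190) 8326049 to 8329944 and NHL10 (AT2G35980) 15110492 to 15111539 on the same chromosome. PR5 (AT1G75040) spans 28177670 to 28179022, ICS1 (AT1G74710) 28070295 to 28074177 and NPR1 (AT1G64280) 23852748 to 23855658, all on chromosome 1. PR2 (AT3G57260, 21188397 to 21189967), PAD4 (AT3G52430, 19431095 to 19434450) and EDS1 (AT3G48090, 17755329 to 17758147) lie on chromosome 3, and SAG101 (AT5G14930, 4828499 to 4830982) on chromosome 5. Counts are per gene and do not separate exons or transcript variants. The 3′ end of FRK1 overlaps AT2G19180 on the opposite strand, a gene that lay between 14.8 and 27.1 CPM (read counts scaled to library size, with normalisation factors) in every group, including libraries in which FRK1 was below 1 CPM. EDS1 has a near-identical neighbour, AT3G48080, and how reads that match both were counted is not given in the sources used here, so its level is uncertain. NPR1 is overlapped by AT1G64270 and AT1G08667 on the opposite strand, which were not analysed here.

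The sequences upstream of FRK1 and PR5 are shown because these were the members called lower in libraries labelled eTK within both batches of controls. Each is the 250 bases before the annotated start, 5′ to 3′ on the strand of the gene. Capitals mark TTGAC on either strand (GTCAA when read on the other), the core of the W box that WRKY factors bind, and GAANNTTC, an inverted pair of the GAA units that heat shock factors bind. The windows are chr2:8329945-8330194 on the minus strand for FRK1 and chr1:28177420-28177669 on the plus strand for PR5, from the RefSeq copy of TAIR10.1.
FRK1: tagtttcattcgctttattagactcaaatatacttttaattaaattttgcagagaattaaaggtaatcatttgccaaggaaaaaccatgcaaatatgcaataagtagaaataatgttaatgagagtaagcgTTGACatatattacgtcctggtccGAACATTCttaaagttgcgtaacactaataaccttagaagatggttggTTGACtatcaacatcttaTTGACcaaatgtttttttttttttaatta
PR5: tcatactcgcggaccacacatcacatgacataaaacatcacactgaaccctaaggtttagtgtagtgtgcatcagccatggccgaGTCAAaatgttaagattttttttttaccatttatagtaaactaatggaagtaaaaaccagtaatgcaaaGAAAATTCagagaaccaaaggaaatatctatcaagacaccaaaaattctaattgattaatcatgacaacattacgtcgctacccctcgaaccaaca
The FRK1 window holds 3 TTGAC cores, and 3 or more stood in 3.38% of the 27443 windows of this length. At least 1 TTGAC core stood in 44.9% of all windows and in those of PR1, PR5, NHL10, EDS1 and SAG101, with 1 each. GAANNTTC, which stood in 9.55% of all windows, was found once in the FRK1 window (−95) and once in the PR5 window (−96) and in no other member's. TGACG, the core bound by TGA factors, stood in 18.6% of all windows and in none of the 10. A match is a description of the letters and not evidence of binding.

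The transcripts of the targeted genes and a heat shock protein were set against the labels first. In control, HSFA1B was at 1.45 ± 0.315 CPM in libraries labelled eTK and 12.4 ± 2.04 CPM in Col-0 libraries (SD, n = 6 each), and HSFA1D at 5.54 ± 0.564 and 14.6 ± 0.627 CPM, but HSFA1A was higher, at 12.1 ± 1.62 CPM in libraries labelled eTK against 6.24 ± 0.922 CPM in Col-0. For this reason it is named here by its label. In heat HSP101, a chaperone gene that responds to HSFA1 factors, was at 12.9 to 15.5 CPM in libraries labelled eTK and at 21600 to 27387 CPM in Col-0. Libraries held 58370609 to 110875442 counts. Of whole-seedling markers none of the 6 shoot or 8 root genes was at 0 in any group, while the leaf senescence marker SAG12 was at 0 in all groups.

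Per kilobase of annotated exon, FRK1 was the highest of the 10 genes in Col-0 control and the ninth in control libraries labelled eTK. It averaged 0.532 ± 0.273 CPM per kb in control libraries labelled eTK, against 15.6 ± 11 CPM per kb in Col-0 control libraries (SD, n = 6 each), with Col-0 libraries between 2.55 and 30.1. In Col-0 control the next were NPR1 at 11.8 ± 0.38, EDS1 at 9.64 ± 1.56, SAG101 at 7.6 ± 0.875, ICS1 at 6.69 ± 2.34, NHL10 at 6.56 ± 3.54, PR5 at 5.96 ± 2.09 and PAD4 at 5.71 ± 2.25 CPM per kb. Among these 8, only NPR1 and EDS1 were neighbours whose ranges of mean ± SD did not overlap. PR1 (0.853 ± 1.02) and PR2 (0.275 ± 0.252 CPM per kb) were the lowest. All 10 passed the filter on low counts.

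**Figure D1:**
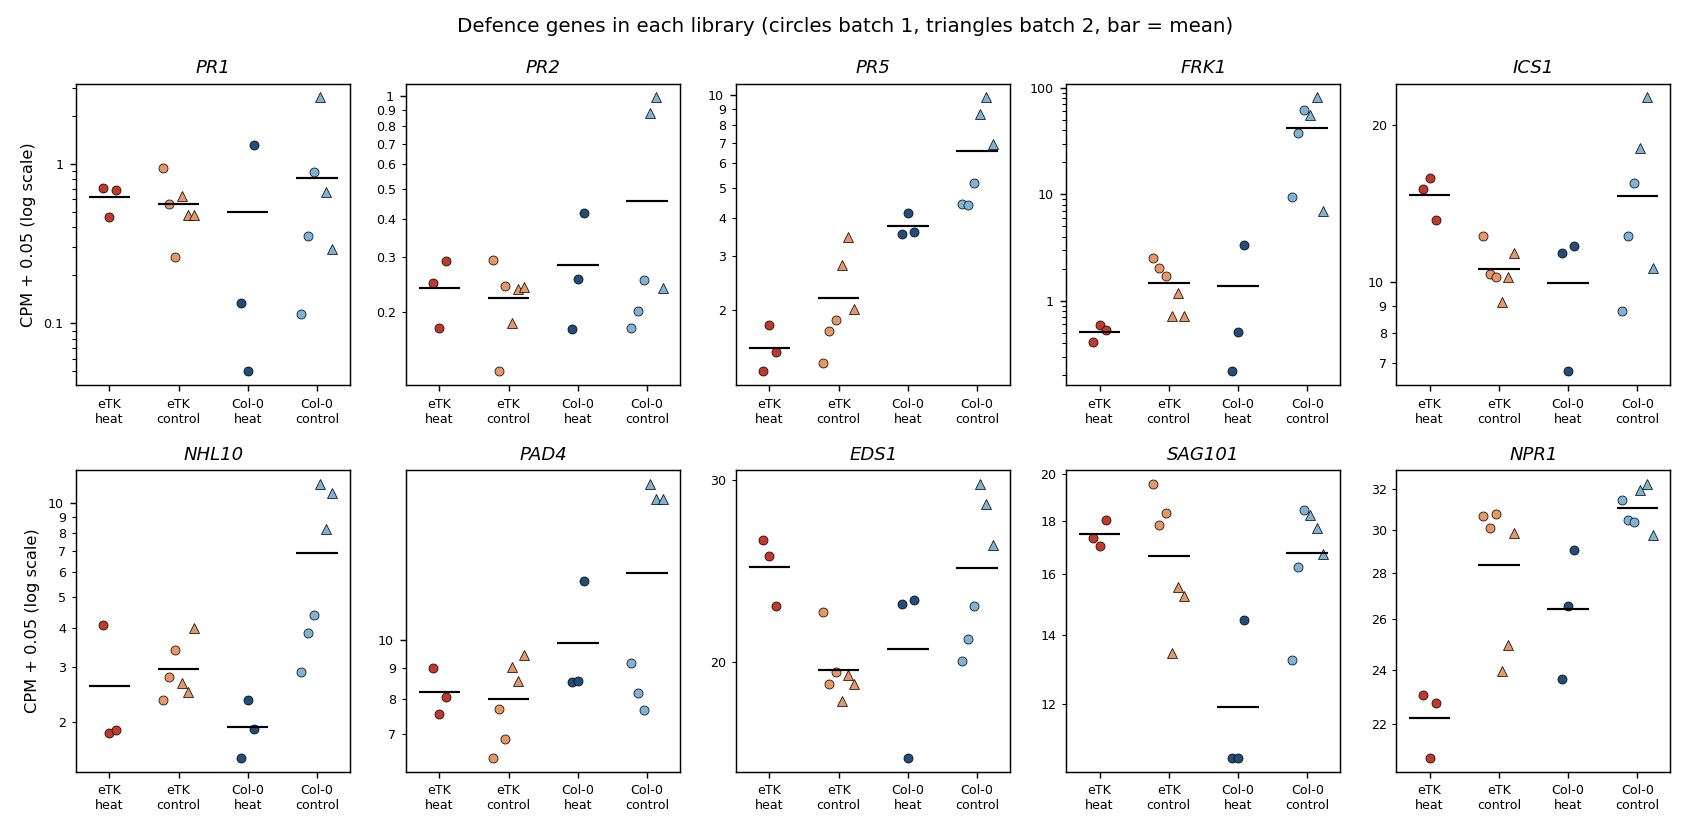
Normalised level of each defence gene in each library, as CPM plus 0.05 on a log axis, for heat and control libraries labelled eTK and heat and control libraries of Col-0 (circles batch 1, triangles batch 2, bars group means). FRK1 in the 6 Col-0 control libraries lay between 6.88 and 81.4 CPM, above every other library, and NHL10, PAD4 and EDS1 were higher in the batch 2 Col-0 controls than in those of batch 1.

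The comparison of the lines in control asks how the defence genes stand before heat. Of the 10 genes, 5 were called lower in libraries labelled eTK (PR5, FRK1, NHL10, PAD4 and EDS1) and none higher, where 27.2% of all 22696 genes tested were called in either direction and 13.8% lower. All 10 estimates were negative, with a median log2 difference of −0.53 over the members and 0.01 over all genes. Within batch 1, 7 were negative and 3 positive, with a median of −0.11. Within batch 2 all 10 were negative, with a median of −1.09. The tests are edgeR quasi-likelihood tests with Benjamini-Hochberg adjustment over all genes tested, called at an adjusted p below 0.05, and log2 differences are given ± SE. In bulk RNA, fewer cells of a type and less RNA per cell cannot be told apart.

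The early pattern-response gene FRK1 differed most. It was at 0.669, 1.4 and 2.47 CPM (lowest, median and highest) in the 6 control libraries labelled eTK, against 6.88, 46.6 and 81.4 CPM in the 6 Col-0 control libraries. No library of one line reached the range of the other, and Col-0 replicates 1 and 6, at 9.34 and 6.88 CPM, stood well below the other 4, which lay between 37.5 and 81.4. FRK1 was lower in libraries labelled eTK by a factor of 30.6 (log2 −4.94 ± 0.7, adjusted p = 7.1e-05). The difference was −4.15 ± 0.95 within batch 1 and −5.88 ± 1.1 within batch 2 (adjusted p = 0.0118 and 0.00353, 3 libraries a line), and it stayed between −5.25 and −4.61 when any 1 library was left out.

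PR5, the thaumatin-like PR protein, was the other gene that differed in both batches. Its levels were 1.3, 1.67, 1.81, 2.75, 3.41 and 1.98 CPM in replicates 1 to 6 of the controls labelled eTK, against 4.39, 4.36, 5.14, 8.61, 9.77 and 6.88 CPM in those of Col-0. The ranges did not overlap, and in both lines batch 2 was the higher. PR5 was lower by a factor of 3 (log2 −1.58 ± 0.14, adjusted p = 9.47e-08), at −1.53 ± 0.2 within batch 1 and −1.63 ± 0.2 within batch 2 (adjusted p = 0.000118 and 4.44e-05). These 2 genes were the members whose lines did not overlap over all 12 control libraries, as held for 6.19% of all genes in this direction.

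The remaining differences in control were found in batch 2. Within batch 2, 7 members were called lower in libraries labelled eTK (PR2, PR5, FRK1, NHL10, PAD4, EDS1 and NPR1), where 24.4% of 22443 genes were called and 13.7% lower. Within batch 1 the count was 2 lower (PR5 and FRK1), against 26.5% of all genes called and 13.3% lower. NHL10 was at 2.62, 2.44 and 3.94 CPM in batch 2 controls labelled eTK and 11.4, 8.22 and 10.7 CPM in those of Col-0, but in batch 1 at 2.31, 2.73 and 3.36 CPM in the line labelled eTK and 2.84, 3.79 and 4.34 CPM in Col-0. The lines thus overlapped in batch 1 and stood apart in batch 2. The difference was −1.74 ± 0.22 in batch 2 (adjusted p = 5.37e-05) and −0.38 ± 0.22 in batch 1 (adjusted p = 0.217), and the line by batch term passed the test (−1.37 ± 0.3, adjusted p = 0.0223).

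PAD4, the partner of EDS1 in basal resistance, followed the same pattern. It was at 8.97, 8.51 and 9.39 CPM in batch 2 controls labelled eTK against 18.1, 17.1 and 17.1 CPM in Col-0, and in batch 1 at 6.33, 7.65 and 6.82 CPM against 9.11, 8.12 and 7.61 CPM. The Col-0 batch 2 libraries were apart from all other controls. The line difference was −0.96 ± 0.096 in batch 2 (adjusted p = 7.9e-06) and −0.26 ± 0.097 in batch 1 (adjusted p = 0.0674), with a line by batch term of −0.70 ± 0.14 (adjusted p = 0.0138). EDS1, the shared subunit of the lipase-like complexes, was at 18.3, 19.4 and 19 CPM in batch 2 controls labelled eTK against 29.7, 28.4 and 25.9 CPM in Col-0, and in batch 1 at 22.3, 19 and 19.5 CPM against 20, 21 and 22.6 CPM. Its difference was −0.56 ± 0.084 in batch 2 and −0.06 ± 0.084 in batch 1 (adjusted p = 0.000261 and 0.624), with a line by batch term of −0.50 ± 0.12 (adjusted p = 0.029). EDS1 over both batches (−0.31 ± 0.098, adjusted p = 0.0228) was not called without any 1 of 5 batch 2 controls. These 3 were the members called in the line by batch term, all negative, which called 5.95% of 22443 genes, 2.39% higher and 3.56% lower, and the call of NHL10 and that of EDS1 were each lost without any 1 of 6 of the 12 control libraries.

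**Figure D2:**
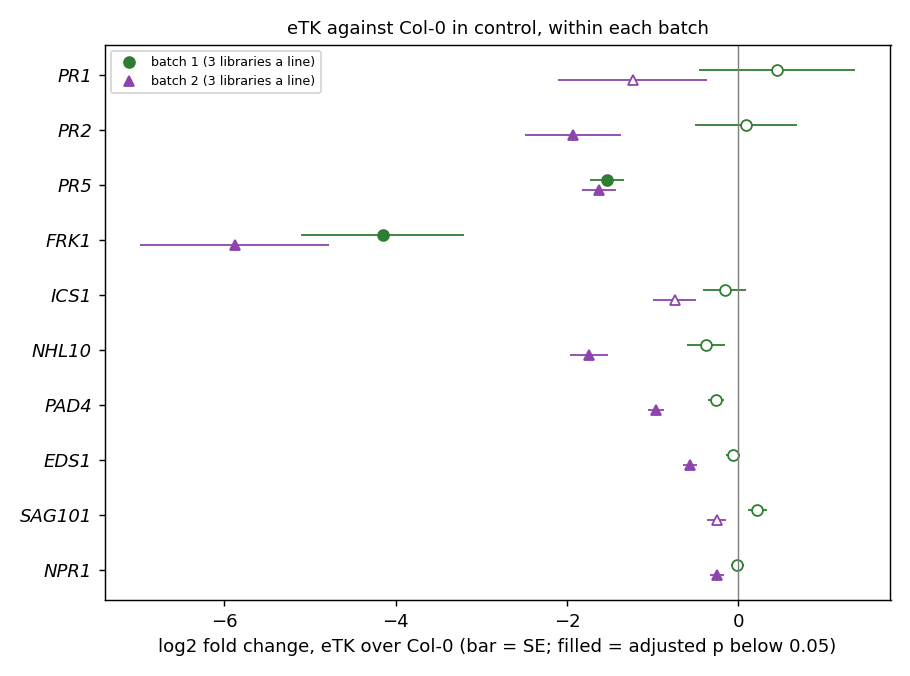
Log2 fold change of control libraries labelled eTK over Col-0 control libraries within batch 1 (circles) and batch 2 (triangles), 3 libraries a line in each, with SE bars and filled symbols where the adjusted p was below 0.05. PR5 and FRK1 were called in both batches, and PR2, NHL10, PAD4, EDS1 and NPR1 in batch 2 only, where a call in 1 batch does not by itself show a difference between the batches.

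ICS1, SAG101 and NPR1 differed less between the lines in control. ICS1 was at 9.1, 10.2 and 12.2 CPM (lowest, median and highest) in controls labelled eTK and at 8.77, 13.8 and 22.5 CPM in Col-0, which overlapped, and it did not pass the test (−0.45 ± 0.18, adjusted p = 0.0827). SAG101, the other EDS1 partner, was at 13.4 to 19.5 CPM in controls labelled eTK and 13.2 to 18.4 CPM in Col-0 (−0.02 ± 0.1, adjusted p = 0.932). NPR1 was at 23.9 to 30.7 CPM in controls labelled eTK and 29.7 to 32.2 CPM in Col-0 (−0.13 ± 0.067, adjusted p = 0.157). Its replicates 4 and 5 labelled eTK, at 23.9 and 24.9 CPM, lay below all other control libraries, and the batch 2 difference was −0.25 ± 0.079 (adjusted p = 0.0335).

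PR1 and PR2, the classic outputs of salicylate signalling, were at low counts. PR1 had 24 to 66 counts in controls labelled eTK and 6 to 210 counts in Col-0 controls, or 0.209 to 0.896 CPM against 0.0636 to 2.56 CPM. The groups overlapped, and Col-0 replicate 4, at 2.56 CPM, stood above every other library. PR2 had 8 to 22 counts in controls labelled eTK and 12 to 86 in Col-0, or 0.0785 to 0.244 CPM against 0.127 to 0.938 CPM, and the high values were those of Col-0 replicates 4 and 5. Neither passed the test over both batches (PR1 −0.43 ± 0.74, adjusted p = 0.73, and PR2 −0.98 ± 0.47, adjusted p = 0.134), and within batch 2 PR2 did (−1.93 ± 0.56, adjusted p = 0.0221).

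The controls were then compared between the batches. Over both lines 4 members were called higher in batch 2 (PR5, NHL10, PAD4 and EDS1), where 42.5% of 22443 genes were called and 23.3% higher. In controls labelled eTK, 2 members were called higher in batch 2 (PR5, 0.80 ± 0.2, and PAD4, 0.41 ± 0.097, adjusted p = 0.01 and 0.00627), where 28.2% of the genes were called and 15.6% higher. In Col-0 controls 5 were called higher in batch 2, where 35.1% of the genes were called and 19.9% higher. These were PR2 at 2.08 ± 0.56, NHL10 at 1.50 ± 0.21, PAD4 at 1.11 ± 0.097, PR5 at 0.90 ± 0.19 and EDS1 at 0.44 ± 0.084, with adjusted p from 2.16e-06 for PAD4 to 0.0111 for PR2. FRK1 did not pass in either line (−1.28 ± 1.1 in the line labelled eTK and 0.45 ± 0.8 in Col-0, adjusted p = 0.431 and 0.698), although its 3 batch 2 controls labelled eTK (0.671, 1.13 and 0.669 CPM) were all below the 3 of batch 1 (2.47, 2 and 1.67 CPM). Since heat was measured in batch 1 only, a batch difference that differs between the lines enters the heat estimates of the fit over all libraries, and values from batch 1 libraries alone are given beside the main ones for the members called, and for other genes where they move a value printed here by more than a factor of 1.5 or change its call or sign.

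Heat in the line labelled eTK changed 3 members by the test over all libraries: PAD4 and EDS1 rose and NPR1 fell, where 55.7% of 22696 genes were called, 27% higher and 28.7% lower. From batch 1 libraries alone NPR1 was the single call, against 56.1% of 22341 genes. The salicylate coactivator NPR1 was at 23, 20.8 and 22.7 CPM in heat and at 30.6, 30, 30.7, 23.9, 24.9 and 29.8 CPM in control. Every heat library was below every control library. NPR1 fell by 0.40 ± 0.09 on the log2 scale (adjusted p = 0.00109), and by 0.46 ± 0.081 in batch 1 alone (adjusted p = 0.000275).

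EDS1 was at 26.2, 25.3 and 22.6 CPM in heat libraries labelled eTK, against 22.3, 19 and 19.5 CPM in batch 1 controls and 18.3, 19.4 and 19 CPM in batch 2 controls. The heat libraries were above all 6 controls, the lowest of them by little. EDS1 rose by 0.40 ± 0.13 (adjusted p = 0.0118), and its value in batch 1 alone was 0.28 ± 0.12 (adjusted p = 0.0622). PAD4 was at 8.93, 7.5 and 8.01 CPM in heat and 6.33 to 9.39 CPM in control, which overlapped, and its rise of 0.40 ± 0.16 (adjusted p = 0.0431) was lost without any 1 of 13 libraries and in batch 1 alone (0.23 ± 0.15, adjusted p = 0.204). ICS1 was at 15, 15.8 and 13.1 CPM in heat, above all 6 controls at 9.1 to 12.2 CPM, and lay at the threshold (0.57 ± 0.24, adjusted p = 0.0516). It was called with RLE factors (adjusted p = 0.042), by DESeq2 (adjusted p = 0.03), with halved counts (adjusted p = 0.0477) and without 1 of 4 libraries in turn, and not in batch 1 alone (0.43 ± 0.21, adjusted p = 0.093). FRK1 was at 0.362, 0.538 and 0.483 CPM in heat, below all 6 controls at 0.669 to 2.47 CPM, and did not pass (−1.73 ± 1.1, adjusted p = 0.183, and −2.13 ± 0.98, adjusted p = 0.0917, in batch 1 alone). In the other 5 members heat and control overlapped in this line and adjusted p lay between 0.391 and 0.897.

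Heat in Col-0 lowered 4 members (FRK1, NHL10, SAG101 and NPR1) and raised none, both over all libraries and in batch 1 alone. Over all libraries 63.7% of the genes passed, with 31.2% higher and 32.4% lower, and in batch 1 alone 64% passed, with 31.6% higher and 32.4% lower, so a share of 4 in 10 lower is near that of all genes. FRK1 was at 0.168, 0.461 and 3.33 CPM in the Col-0 heat libraries, against 6.88, 46.6 and 81.4 CPM (lowest, median and highest) in the Col-0 controls. Every heat library was below every control, with replicate 3 far above the other heat libraries. FRK1 fell 37.1-fold (−5.21 ± 1.0, adjusted p = 0.000426), with −4.83 ± 0.9 in batch 1 alone (adjusted p = 0.000937) and −7.27 to −4.63 with 1 library left out.

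NHL10 was at 1.49, 2.3 and 1.85 CPM in Col-0 heat and 2.84, 3.79 and 4.34 CPM in batch 1 Col-0 controls, with the batch 2 controls higher still. The groups did not overlap, and NHL10 fell by 1.34 ± 0.38 (adjusted p = 0.00493) and by 0.96 ± 0.3 in batch 1 alone (adjusted p = 0.0124). SAG101 was at 10.6, 10.6 and 14.4 CPM in Col-0 heat and at 13.2, 16.2, 18.4, 18.2, 17.7 and 16.7 CPM in control, where only heat replicate 3 reached the lowest control. It fell by 0.55 ± 0.14 (adjusted p = 0.00221), and by 0.43 ± 0.13 in batch 1 alone (adjusted p = 0.011). NPR1 was at 23.6, 26.5 and 29 CPM in Col-0 heat, below all controls at 29.7 to 32.2 CPM, and fell by 0.28 ± 0.091 (adjusted p = 0.0118). Its estimate in batch 1 alone was −0.22 ± 0.081 (adjusted p = 0.0271), and the call was lost without Col-0 heat replicate 1 (−0.21, adjusted p = 0.0737). PR5 was at 3.49, 4.1 and 3.54 CPM in Col-0 heat and 4.36 to 9.77 CPM in control, without overlap, and did not pass (−0.34 ± 0.19, adjusted p = 0.114, and −0.32 ± 0.18, adjusted p = 0.132, in batch 1 alone). In ICS1 (−0.44 ± 0.25, adjusted p = 0.134) and EDS1 (−0.17 ± 0.13, adjusted p = 0.265) Col-0 heat and control overlapped and neither passed. Their estimates in batch 1 alone were −0.29 ± 0.21 and −0.04 ± 0.12 (adjusted p = 0.237 and 0.766). PR1 was at 0.0841, 0 and 1.27 CPM in Col-0 heat. Its 0 counts in replicate 2 allow a level of up to 0.154 CPM (3 fragments, or 6 counts where the mates of a pair are counted separately, for counting error only). Its estimate of −0.32 ± 1.1 became 0.17 ± 1.1 in batch 1 alone and −3.54 (adjusted p = 0.0441) without replicate 3.

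These falls are relative to the other transcripts of a library. The Col-0 heat libraries had a mean normalisation factor of 0.655, against 1.11 in both control groups and 1.02 in the heat libraries labelled eTK. With library size alone as the scale the median over all genes in Col-0 heat was −0.75 in place of −0.04. On that scale 8 members were called lower in Col-0 heat, where 15306 of 22696 genes were called lower and 1861 higher. Most genes thus went the same way as the members.

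**Figure D3:**
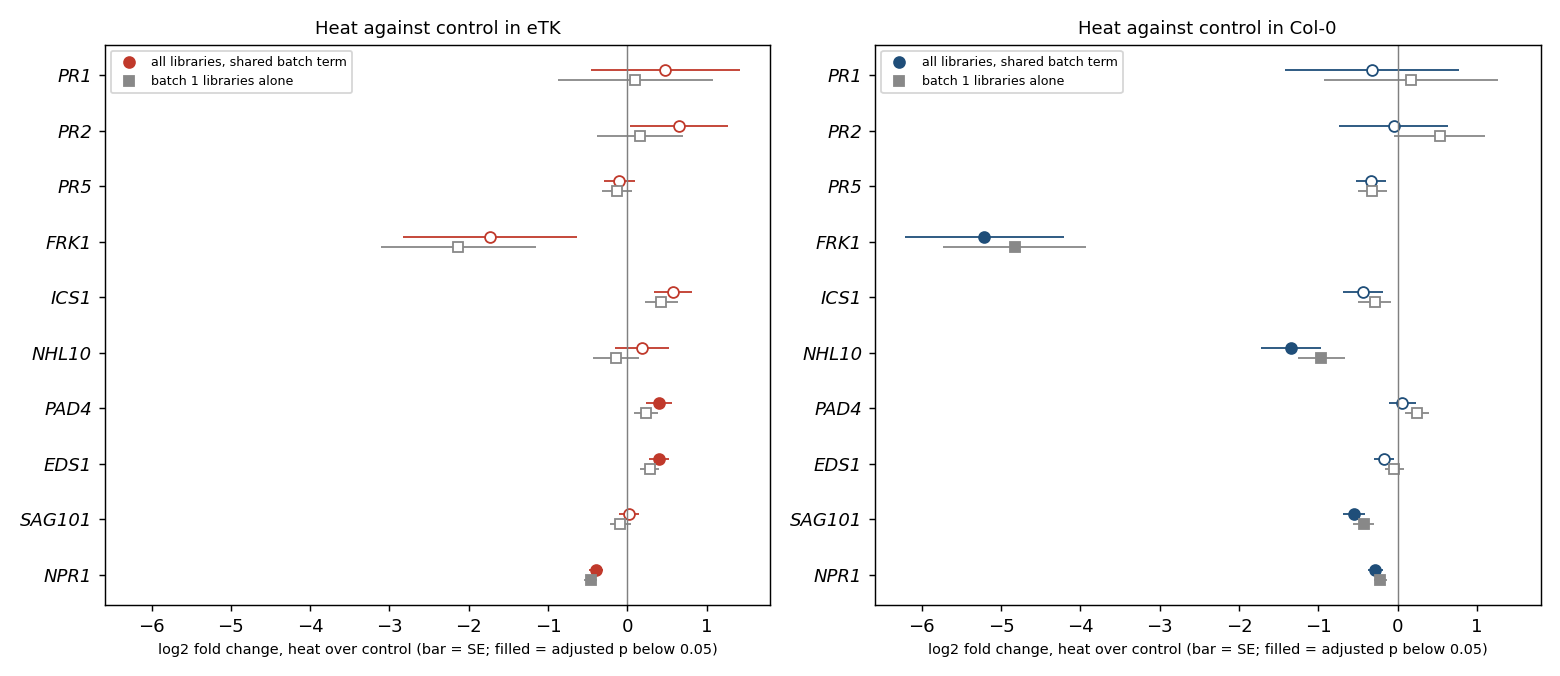
Log2 fold change of heat over control libraries, in the line labelled eTK (left) and in Col-0 (right), from all libraries with a shared batch term (coloured circles) and from batch 1 libraries alone (grey squares), with SE bars and filled symbols where the adjusted p was below 0.05. FRK1 in Col-0 lay at −5.21 and −4.83, and NPR1 was lower in both panels under both fits.

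The responses of the lines to heat were compared directly by the interaction, which is positive where the heat change was higher in the line labelled eTK. Over all libraries 4 members were called, all positive, where 25.1% of the genes were called and 12.5% positive. These were NHL10 at 1.51 ± 0.47 (adjusted p = 0.0243), ICS1 at 1.01 ± 0.32 (adjusted p = 0.0287), EDS1 at 0.58 ± 0.17 (adjusted p = 0.0185) and SAG101 at 0.57 ± 0.18 (adjusted p = 0.0245). In batch 1 alone none of the 10 was called, where 19.9% of the genes were called and 9.7% positive. There the 4 estimates kept their sign, at 0.83 ± 0.42, 0.72 ± 0.29, 0.33 ± 0.17 and 0.34 ± 0.18 in the same order, with adjusted p from 0.107 to 0.234, and 1 member had an unadjusted p below 0.05. FRK1 had the largest estimate (3.48 ± 1.5) and did not pass (adjusted p = 0.1), except by DESeq2 (3.50, adjusted p = 0.0138), when scaled by library size (4.14, adjusted p = 0.0254), and without Col-0 heat replicate 3 (5.54) or Col-0 control replicate 1 (3.81). The call of NHL10 was lost without heat replicate 1 labelled eTK (1.05) or Col-0 heat replicate 1 (1.37), that of ICS1 without heat replicate 1 (1.01) or 2 (0.96) labelled eTK or Col-0 heat replicate 2 (0.80), that of EDS1 without Col-0 heat replicate 2 (0.43), and that of SAG101 without heat replicate 3 labelled eTK (0.56) or Col-0 heat replicate 1 (0.50) or 2 (0.50).

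In heat the lines themselves differed in 3 members (SAG101 higher, PR5 and NPR1 lower in libraries labelled eTK), where 46.4% of the genes were called, 23.3% higher and 23.1% lower. PR5 was at 1.22, 1.74 and 1.42 CPM in heat libraries labelled eTK and 3.49, 4.1 and 3.54 CPM in Col-0 heat, with no overlap (−1.34 ± 0.21, adjusted p = 3.74e-05, and −1.33 ± 0.19, adjusted p = 4.92e-05, in batch 1 alone). SAG101 was at 17.3, 17 and 18 CPM against 10.6, 10.6 and 14.4 CPM, again apart (0.55 ± 0.15, adjusted p = 0.00472, and 0.56 ± 0.13, adjusted p = 0.00283, in batch 1 alone). NPR1 was at 23, 20.8 and 22.7 CPM against 23.6, 26.5 and 29 CPM (−0.25 ± 0.097, adjusted p = 0.0413). Its call was lost without any 1 of 14 libraries but kept in batch 1 alone (−0.24 ± 0.082, adjusted p = 0.0253). The sign of NPR1 turned with library size alone (0.39). FRK1 overlapped between the lines in heat (−1.45 ± 1.2, adjusted p = 0.361), and without Col-0 heat replicate 3 its estimate was 0.61. In batch 1 alone ICS1 was called as well, higher in heat libraries labelled eTK (0.57 ± 0.21, adjusted p = 0.0374, at 15, 15.8 and 13.1 CPM against 11.3, 6.71 and 11.7 CPM in Col-0 heat), where 49.1% of the genes were called and 24.8% higher. PR5 was thus the member called between the lines in control, in heat and within each batch of controls.

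FRK1 varied more among Col-0 control libraries than almost any other gene. The SD of its log2 CPM about the means of its batches was 0.334 in controls labelled eTK and 1.67 in Col-0 controls, where the median gene had 0.128 and 0.133, and its rank in Col-0 was 6 of 19546 genes. ICS1 had 0.149 in controls labelled eTK and 0.487 in those of Col-0, while EDS1 (0.0936 and 0.0942) and PAD4 (0.109 and 0.0981) were below the median gene in both. Across the 18 libraries the deviations from the mean of each group and batch were positively correlated in 38 of the 45 pairs of members. The median r was 0.318 and the range −0.382 (PR5 with NPR1) to 0.806 (PR1 with SAG101). FRK1 with SAG101 was at 0.803, FRK1 with PR2 at 0.8 and ICS1 with EDS1 at 0.788, and these points share libraries and depth. The share of positive pairs over all genes was not computed, so 38 of 45 is not a result about the members. Pairs with PR1 or PR2 rest on few counts, at most 210 and 86 in a library.

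The 5 genes whose deviations were most like those of FRK1 over the 18 libraries were BCB (r = 0.976), which encodes a blue copper-binding protein, SYP121 (0.971), a plasma membrane syntaxin of penetration resistance, AT5G52750 (0.965), AT1G51790 (0.962) and the receptor kinase gene IOS1 (0.954). IOS1 was at 12.7 to 17.3 CPM in controls labelled eTK and at 33.4, 63.3, 87.2, 119, 148 and 53.4 CPM in Col-0 controls 1 to 6. As with FRK1, Col-0 replicates 1 and 6 were the lowest of the Col-0 controls and heat replicate 3, at 21.3 CPM, the highest of the Col-0 heat libraries, which were otherwise at 8.66 and 10.2 CPM. The 5 genes were chosen by likeness over these same libraries, so this shared pattern follows from the choice. IOS1 was lower in controls labelled eTK (−2.43, adjusted p = 2.67e-06) and in Col-0 heat (−2.33, adjusted p = 3.57e-05). BCB was lower in controls labelled eTK (−2.36, adjusted p = 0.000312) but not called in Col-0 heat (−0.70, adjusted p = 0.265), and SYP121 rose in Col-0 heat (0.72, adjusted p = 1.97e-05). For PR1 the 5 were AT4G20770 (0.911), ADR1-L1 (0.911), AT5G64090 (0.894), SAT32 and UGT72E1, a likeness that rests on few PR1 counts.

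**Figure D4:**
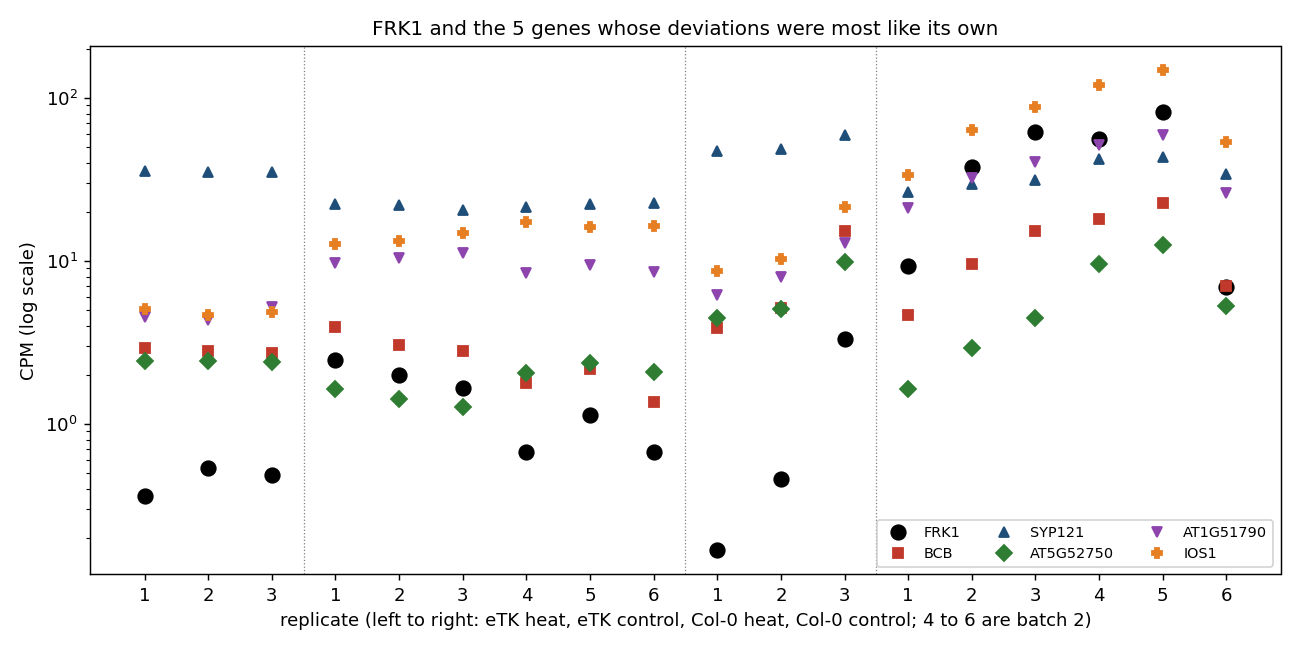
Normalised level (CPM, log axis) of FRK1 (large black circles) and of the 5 genes whose library-to-library deviations were most like its own, in each replicate of the 4 groups. In Col-0 controls all 6 genes were lowest in replicate 1 within batch 1 and in replicate 6 within batch 2, at 9.34 and 6.88 CPM for FRK1, and in Col-0 heat all were highest in replicate 3. The 5 were chosen by this likeness over the same libraries, so the shared pattern is not a separate result.

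Root tissue markers differed between the groups, and not all in the same direction. With heat in the line labelled eTK mean RHD6 rose from 1.84 to 4.06 CPM and CASP1 from 34.3 to 41.3 CPM. The means of COBL9, EXPA7, SHR, SCR, PLT1 and PYK10 fell. The summed root level in the line labelled eTK was 848 to 1013 CPM in heat and 2107 to 3952 CPM in control libraries. In Col-0 it was 1319 to 2666 CPM in heat and 2800 to 8041 CPM in control libraries, and none of the 8 genes was at 0. Most of the sum was PYK10, a root endoplasmic reticulum body enzyme, and without it the controls lay at 99.8 to 107 CPM in the line labelled eTK and 90.5 to 119 CPM in Col-0, and the heat libraries at 70 to 78.4 CPM and 49.5 to 58.7 CPM. The Col-0 control with the lowest FRK1 level, replicate 6, had the highest root sum (8041 CPM) and, without PYK10, the lowest (90.5 CPM), and replicate 1, the next lowest in FRK1, had 3630 CPM. The summed shoot markers lay at 26256 to 28507 CPM in heat and 33715 to 40107 CPM in control libraries labelled eTK, and at 30611 to 37165 CPM in heat and 24778 to 37653 CPM in control libraries of Col-0. The part of root tissue in the differences was not tested.

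Genes that act with the 10 were counted from lists chosen by function, beginning with those that make salicylate and pipecolate. Over all genes heat called 27% higher and 28.7% lower in the line labelled eTK and 31.2% higher and 32.4% lower in Col-0, and the lines in control differed in 13.4% higher and 13.8% lower. A count near these shares is not a result about its list, and lists of 5 to 20 genes give only coarse shares. The counts for heat in Col-0 depend on the scale, and with library size alone they were 1 higher and 7 lower for synthesis, 0 and 3 for turnover, 1 and 8 for receptors and TGA partners, 2 and 3 for salicylate-responsive genes, 2 and 8 for EDS1 partners, 1 and 17 for pattern receptors and 2 and 12 for pattern-responsive genes. On that scale 1861 of 22696 genes were called higher and 15306 lower in Col-0 heat, so most genes were lower there. In control 2 of the 12 synthesis genes were called higher and 7 lower in libraries labelled eTK, with a median of −0.53 against 0.01 over all genes. FMO1, the enzyme that makes N-hydroxypipecolate, was lower (log2 −4.19 ± 0.34, adjusted p = 3e-08, at 0.191 to 0.407 CPM against 1.65 to 8.75 CPM), and PBS3, which conjugates isochorismate with glutamate, was lower too (−3.82 ± 0.69, adjusted p = 0.000442). In batch 1 alone 2 were higher and 2 lower, FMO1 among those lower at −3.16 and PBS3 not called (−2.24, adjusted p = 0.0691). Heat raised 7 and lowered 2 of the 12 in the line labelled eTK, and raised 2 and lowered 2 in Col-0. SARD1 and CBP60G, the factors that activate ICS1, rose in the line labelled eTK by 2.56 ± 0.2 and 3.39 ± 0.7 (adjusted p = 1e-08 and 0.000732, with 2.66 for CBP60G in batch 1 alone). CBP60G was at 10.4 to 16.9 CPM in heat and 0.895 to 2.74 CPM in control libraries of that line, and at 3.2 to 16.8 CPM in heat and 3.39 to 56.6 CPM in control libraries of Col-0. EDS5, the isochorismate exporter, rose in Col-0 heat by 1.32 ± 0.12 (adjusted p = 3.07e-08).

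Salicylate turnover genes showed 4 higher and 1 lower of 5 in heat in the line labelled eTK and 1 higher and 1 lower in Col-0. The salicylate hydroxylase genes DLO1 and DMR6 rose in the line labelled eTK by 2.28 ± 0.53 and 1.37 ± 0.33 (adjusted p = 0.0015 and 0.00218). In control 2 of the 5 were lower in libraries labelled eTK, UGT76B1 (−1.09 ± 0.21) and UGT74F2 (−0.75 ± 0.12), which encode glucosyltransferases. Of 12 receptors and TGA partners 6 rose and 3 fell in heat in the line labelled eTK, and 5 rose and 5 fell in Col-0, while in control 1 was higher and 4 lower in libraries labelled eTK. NPR3, a salicylate receptor that represses the response, rose in the line labelled eTK by 2.62 ± 0.2 (adjusted p = 7.81e-09), to 93.8 to 102 CPM in heat against 10.6 to 20.4 CPM in control, and in heat it was higher there than in Col-0 by 1.82 ± 0.23 (adjusted p = 3.77e-06).

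Of 8 other salicylate-responsive genes, 5 rose and none fell in heat in the line labelled eTK, with a median of 2.66, and in Col-0 3 rose and 1 fell, with a median of 0.37 that became −0.36 with library size alone. WRKY46 rose in both lines, by 3.97 ± 0.5 and 2.44 ± 0.59 (adjusted p = 4.34e-06 in the line labelled eTK and 0.00165 in Col-0), and by 3.39 and 3.42 in batch 1 alone. WRKY38 rose in the line labelled eTK by 3.71 ± 0.55 (adjusted p = 1.96e-05) and was at 2.45 to 3.72 CPM in its heat libraries against 0.205 to 0.264 CPM in Col-0 heat. In control 4 of the 8 were lower in libraries labelled eTK and none higher, among them WRKY62 (−3.61 ± 0.6) and WRKY51 (−2.17 ± 0.61, adjusted p = 0.000162 and 0.0117, and −0.71 with adjusted p = 0.577 for WRKY51 in batch 1 alone). WRKY62 was at 0.0136 to 0.131 CPM in controls labelled eTK against 0.243 to 1.37 CPM in Col-0, and WRKY51 at 0.0392 to 0.19 CPM against 0.0503 to 1.19 CPM. Both differences thus rest on few counts in the line labelled eTK. The interaction called 6 of the 8, all positive, and 3 in batch 1 alone, where 12.5% and 9.7% of all genes were called positive.

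Among 11 EDS1 partners and resistance genes, 6 were lower and none higher in controls labelled eTK (3 lower in batch 1 alone), and 5 rose and 4 fell with heat in each line. SNC1, an intracellular immune receptor gene, was lower in controls labelled eTK (−1.34 ± 0.069, adjusted p = 4.04e-11, at 45.2 to 62.6 CPM against 116 to 141 CPM). SGT1A, a co-chaperone of such receptors, rose in Col-0 heat by 4.95 ± 0.15 (adjusted p = 3.11e-15) and was at 36.9 to 49.4 CPM in heat libraries labelled eTK against 783 to 1120 CPM in Col-0 heat.

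Pattern receptors and their kinases were mostly lower in heat, 12 of 20 in the line labelled eTK (4 higher) and 15 of 20 in Col-0 (3 higher). FLS2, the flagellin receptor, fell by 2.40 ± 0.22 and 2.44 ± 0.23 (adjusted p = 7.76e-08 in the line labelled eTK and 4.3e-08 in Col-0), and was at 3.49 to 5.26 CPM against 9.99 to 31.4 CPM in the line labelled eTK. In control 11 of the 20 were lower in libraries labelled eTK and none higher (5 lower in batch 1 and 13 in batch 2), among them EFR, the receptor for bacterial elongation factor Tu (−1.37 ± 0.14, adjusted p = 6.12e-07). Of 9 MAP kinase cascade genes 6 rose in heat in the line labelled eTK and 5 rose and 1 fell in Col-0. With library size alone none rose and 7 fell in Col-0, where 15306 of 22696 genes fell on that scale. With normalisation factors MPK3 rose in both lines, by 1.13 ± 0.13 in the line labelled eTK and by 0.68 ± 0.13 in Col-0 (adjusted p = 5.68e-07 and 0.000162).

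Pattern-responsive genes other than FRK1 and NHL10 responded differently to heat in the lines. In heat 12 of 17 rose and 1 fell in the line labelled eTK, with a median of 1.63, and 2 rose and 8 fell in Col-0, with a median of −0.75. The interaction called 12, all positive, and 9 in batch 1 alone, again all positive. Over all genes it called 12.5% positive, and 9.7% in batch 1 alone. With any 1 library left out the interaction called between 10 and 14 of the 17 positive and none negative. PHI-1, a phosphate-induced gene, rose in both lines, by 4.85 ± 0.32 and 4.01 ± 0.34 (adjusted p = 1.84e-09 in the line labelled eTK and 2.4e-08 in Col-0). CYP71A13, of camalexin synthesis, fell in Col-0 heat (−2.69 ± 0.87, adjusted p = 0.0124, and −1.95, adjusted p = 0.0498, in batch 1 alone), and PAD3, which completes camalexin, was higher in heat libraries labelled eTK than in Col-0 heat (2.24 ± 0.5, adjusted p = 0.00146). In control 11 of the 17 were lower in libraries labelled eTK and none higher, with 8 lower and 1 higher within batch 1 and 13 lower within batch 2. PER4, a peroxidase gene, was lower (−4.16 ± 0.47, adjusted p = 4.28e-06, at 0.863 to 2.46 CPM against 4.2 to 71.1 CPM), and CYP81F2, of indole glucosinolate synthesis, was lower too (−3.46 ± 0.47, adjusted p = 3.13e-05). In batch 1 alone PER4 was at −3.05 (adjusted p = 0.00185) and CYP81F2 at −2.32 (adjusted p = 0.0101). The heat comparison in the line labelled eTK and the control comparison of the lines share the control libraries labelled eTK.

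**Figure D5:**
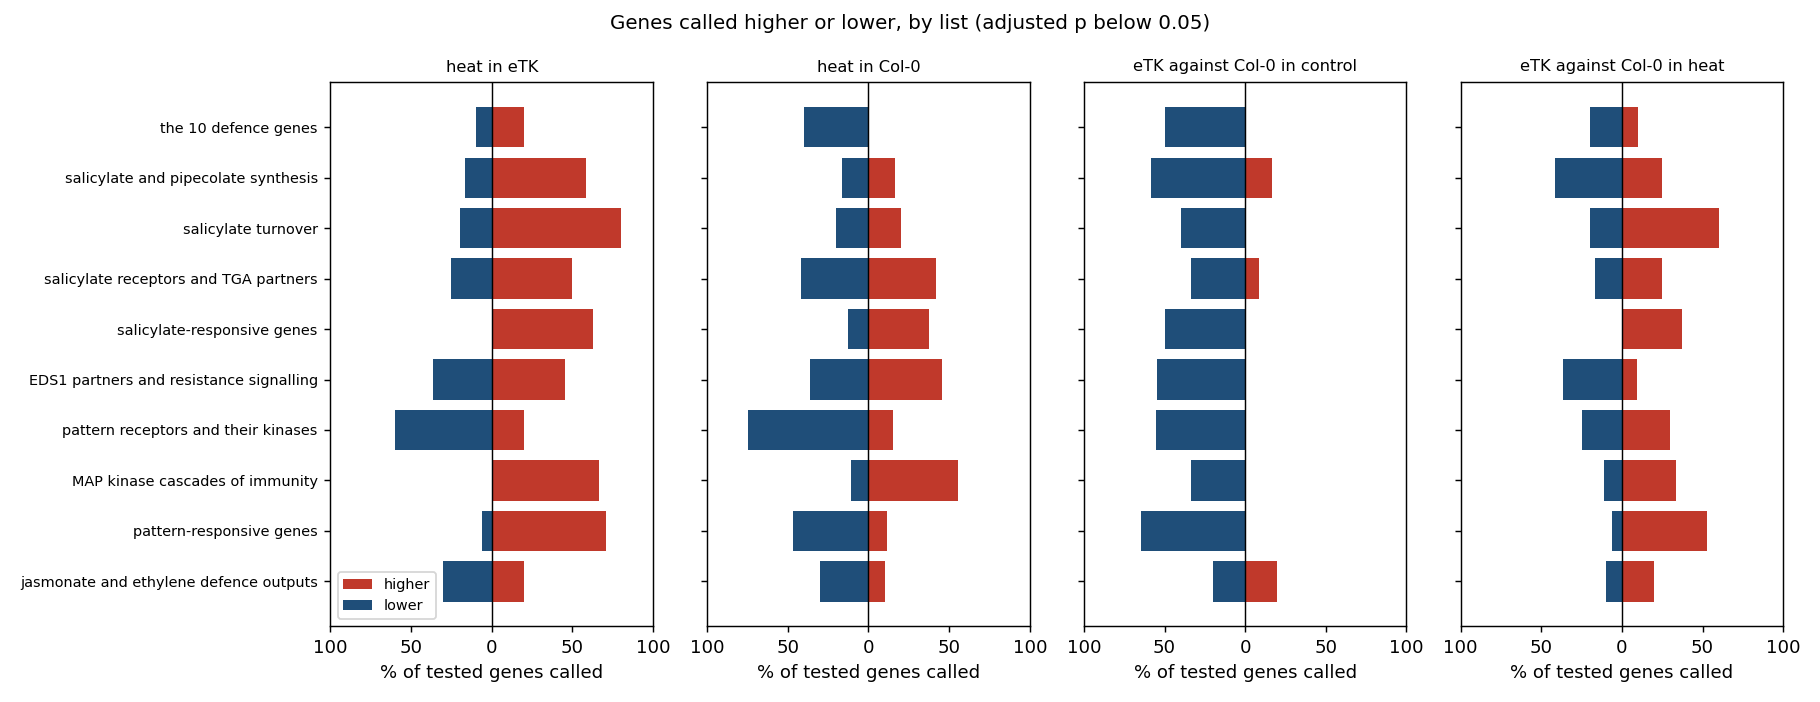
Percent of the tested genes of each list that were called higher (red, to the right) or lower (blue, to the left) at an adjusted p below 0.05, for heat in the line labelled eTK, heat in Col-0 and the line labelled eTK against Col-0 in control and in heat. In control the bars of the defence lists point mostly to lower in libraries labelled eTK, with 11 of 17 pattern-responsive genes lower, and with heat 12 of these 17 rose in the line labelled eTK and 8 fell in Col-0.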

How the data were processed

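Per the labels' protocols, RNeasy columns yielded the seedling RNA and a NovaSeq read the libraries. The authors deposited raw read counts per gene, and STAR 2.7.9a, fastp 0.24.0, Subread 2.0.6 and featureCounts are listed without roles, per the submitters' processing notes. The build, the annotation and the strand setting are not given in the sources used here, so reads of overlapping antisense genes cannot be told apart. Most counts were even (75.4% to 83.3% per library), as happens where the mates of a pair are counted separately, so PR1 and PR2 may rest on fewer fragments than counts. The 36 Marchantia polymorpha samples of the 54 were not analysed here.

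Counts of 18 libraries were tested with edgeR 4.0.16 under R 4.3.3, with TMM factors, filterByExpr, glmQLFit (robust) and glmQLFTest, with a term per group and a shared batch term on 22696 genes. The 12 controls were fitted again with line, batch and their interaction on 22443 genes. The SE was obtained from the fold change (log2) and the F statistic, as size over root F. The fit over 18 libraries was tested on simulated data. Levels are CPM with TMM factors. The 36 replicate pairs all differed beyond sampling noise (chi-square per degree of freedom 7.33 to 237). Correlations used deviations of log2 CPM (pseudocount 0.1) from the mean of each group and batch, and genes with a mean of at least 1 CPM were ranked for likeness to PR1 and FRK1.

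Members and lists were chosen with earlier results of these data known. All 10 members are named. Genes named from the pathway lists are among the 2 called genes of a list with the largest change in a heat or line comparison, and not all of these are printed. Of 153 listed identifiers 8 were left out because their annotated symbol did not match. Alternatives were library size alone, RLE factors, DESeq2 1.42.0, no filter, no batch term, a batch term for each line, batch 1 alone, a replicate block, halved counts and each library left out. Positions and promoter windows come from the RefSeq copy of TAIR10.1, to which 27445 identifiers matched.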

Additional observations from a re-analysis of the deposited data

Results flagged for a closer look

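In 20 groups of 4 to 10 libraries tested for a library far from the others, 2 values stood out, where chance gives about 1 in 20 groups. PR1 was at 2.56 CPM in Col-0 control replicate 4, with the next library at 0.839 CPM. EDS1 was at 22.3 CPM in control replicate 1 labelled eTK, with the other 5 between 18.3 and 19.5 CPM.

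The heat response differed between the lines by the interaction over all libraries in ICS1 (1.01), NHL10 (1.51), EDS1 (0.58) and SAG101 (0.57), each higher in the line labelled eTK and none called in batch 1 alone. The difference between the lines in control differed between the batches in NHL10 (−1.37), PAD4 (−0.70) and EDS1 (−0.50), each more negative in batch 2. What the batches share was not given, and its part in these values was not tested.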

How the results depend on the processing

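Of 26 member results called over 7 comparisons, 1 changed sign under any alternative (NPR1 in heat between the lines), and the other sign changes were in results that were not called. The cause of the changes below was not tested. Batch 1 alone has fewer libraries, while a batch term for each line uses all of them.

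With library size alone the calls among members were 8 in Col-0 heat (17167 genes, 15306 of them lower), 8 in the interaction (15347 genes) and 6 between the lines in heat (16939 genes). Estimates then turned for SAG101 in heat in the line labelled eTK (−0.06), PAD4 in Col-0 heat (−0.66), NPR1 in the interaction (0.52), and PR2 (0.35), PAD4 (0.37) and NPR1 (0.39) between the lines in heat. Batch 1 alone and a batch term for each line left 2 members called in control and 0 in the interaction, and batch 1 alone left 1 called in heat in the line labelled eTK. There estimates turned for NHL10 (−0.14 in both) and SAG101 (−0.09 in both) in heat in the line labelled eTK, and for PR1 (0.17 in both) and PR2 (0.53 in both) in Col-0 heat. In the interaction PR1 was at −0.06 and −0.07, PR2 at −0.37 and PAD4 at −0.01, and in control PR1 was at 0.45 and 0.44, PR2 at 0.10 and 0.09 and SAG101 at 0.23 and 0.22. With no batch term NHL10 was at −0.19 in heat in the line labelled eTK and PAD4 at −0.39 in Col-0 heat. DESeq2 called 2756 genes in the line by batch term, against 1335 by edgeR.

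Of 21 same-numbered pairs of replicates 5 correlated above 0.1 (range −0.446 to 0.373). Differently numbered pairs were not set beside them, so this cannot decide whether replicate numbers pair the samples. With the replicate block PAD4 in heat in the line labelled eTK (0.40, adjusted p = 0.0768) and NPR1 between the lines in heat (−0.25, adjusted p = 0.0684) were no longer called, PR5 in Col-0 heat was (−0.35, adjusted p = 0.0478), PR2 was at 0.00 in Col-0 heat and PR1 at 0.10 in control.

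With any 1 library left out the interaction called 1 to 5 members, and the line by batch term 1 to 5 members and 476 to 3323 genes. In heat in the line labelled eTK the ranges were −0.25 to 0.01 for PR5, −0.30 to 0.40 for NHL10 and −0.01 to 0.09 for SAG101. In Col-0 heat they were −3.54 to 0.26 for PR1, −0.54 to 0.27 for PR2 and −0.15 to 0.15 for PAD4. In control they were −0.75 to 0.32 for PR1 and −0.09 to 0.05 for SAG101, and −0.30 to 0.05 for PR5 in the line by batch term. Between the lines in heat they were −0.21 to 3.60 for PR1, −0.60 to 0.21 for PR2, −2.02 to 0.61 for FRK1 and −0.03 to 0.65 for NHL10. PR1 had at most 210 and PR2 at most 86 counts in a library, and PR1 varied widely within groups (6 to 210 counts in Col-0 controls).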

Other observations

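Of 10 jasmonate and ethylene defence outputs, 2 rose and 3 fell with heat in the line labelled eTK and 1 rose and 3 fell in Col-0, while in control 2 were higher and 2 lower in libraries labelled eTK. Over all genes 27% rose and 28.7% fell with heat in the line labelled eTK, 31.2% rose and 32.4% fell in Col-0, and 13.4% were higher and 13.8% lower in controls labelled eTK. VSP1, a vegetative storage protein gene that jasmonate induces, fell with heat by 2.50 ± 0.46 in the line labelled eTK and by 1.31 ± 0.45 in Col-0 (adjusted p = 0.000175 and 0.018), and was higher in controls labelled eTK by 1.56 ± 0.32 (adjusted p = 0.00113). ORA59, an ethylene and jasmonate response factor, was lower there (−1.21 ± 0.12, adjusted p = 4.31e-07), and PR4, a chitin-binding protein gene, was lower in heat libraries labelled eTK than in Col-0 heat (−2.01 ± 0.29, adjusted p = 2.38e-05).

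Of 3 CAMTA genes, whose products repress salicylate synthesis, 2 rose and 1 fell with heat in each line, CAMTA3 by 0.52 ± 0.079 in the line labelled eTK and by 0.49 ± 0.08 in Col-0 (adjusted p = 2.15e-05 and 3.25e-05). With library size alone all 3 were called lower in Col-0 heat, as were 15306 of 22696 genes. The 5 genes often used as references were all called higher with heat in both lines by edgeR with the shared batch term. UBQ10 rose by 1.34 ± 0.093 in the line labelled eTK and 1.80 ± 0.094 in Col-0. With any 1 library left out, 3 to 5 of the 5 were called higher in the line labelled eTK and 5 in Col-0. Mean GAPC2 was at 1156 CPM in heat and 1176 CPM in control libraries labelled eTK. With library size alone 3 rose in the line labelled eTK, and 2 rose and 1 fell in Col-0. On that scale 4971 of 22696 genes rose and 7378 fell in the line labelled eTK, and 1861 rose and 15306 fell in Col-0.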
